A study of Rattus norvegicus with 12 samples.

Results

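The genes of oxidative phosphorylation were read in the anterior pituitary of 4 congenic rat lines under long estrogen treatment. A member was any gene whose probe set carried exactly 1 platform gene symbol starting with Ndufa, Ndufb, Ndufc, Ndufs, Ndufv, Uqcr, Cox4, Cox5, Cox6, Cox7, Cox8 or Atp5, or equal to *Sdha*, *Sdhb*, *Sdhc* or *Sdhd*, with pseudogenes left out and the brightest probe set kept for each gene. This gave 85 of the 14218 genes that had a probe set of 1 symbol. By complex there were 36 subunit genes of complex I, 6 complex I assembly factors of the Ndufaf group, 4 genes of complex II, 7 of complex III, 16 of complex IV and 16 of complex V. The rule used names only and no measured value other than brightness.

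The 12 arrays came from male rats, 3 from each of Ept1, Ept2, Ept6 and Ept9. These lines had the ACI genome with a segment of COP origin at 1 locus, on chromosome 6 in Ept1, chromosome 3 in Ept2 and in Ept6, and chromosome 10 in Ept9. Every rat, in all 4 lines alike, carried a subcutaneous implant of 5 mg diethylstilbestrol (DES), a synthetic estrogen, from 9 weeks of age until it was killed at 21 weeks, after 12 weeks of treatment, and received BrdU, a label of DNA synthesis, at 50 mg/kg 4 h before death. No untreated rat and no ACI rat was analysed here, so every contrast takes 1 line minus the average of the remaining 3, and the 4 contrasts share their arrays. The labels describe the arrays of a line both as 3 biological replicates and as fewer independent ones, so part of the spread behind the p-values may be technical. The tissue label was checked against hormone genes. Prolactin (*Prl*) ran from 41979 to 51767 signal units and growth hormone (*Gh1*) from 27923 to 40693. All 5 markers of the posterior lobe were under the filter on dim probe sets. But *Pomc*, the hormone gene of corticotrophs in the anterior lobe, was under it too (10.6 to 152). A dim marker alone therefore does not show that a cell type was absent.

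Oxidative phosphorylation is the last stage of respiration. Complexes I and II take electrons from NADH and succinate and pass them to ubiquinone, complex III passes them on to cytochrome c, and complex IV hands them to oxygen. Complexes I, III and IV pump protons across the inner mitochondrial membrane as they do so, and complex V, the ATP synthase, makes ATP as the protons flow back. Most subunits are nuclear genes and a few are encoded in mitochondrial DNA. In the pituitary this machinery supplies ATP for hormone synthesis and exocytosis. Some complex IV subunits exist as alternative isoforms typical of muscle, lung or testis. Nuclear respiratory factor 1 (NRF1), the ETS-family factor GABP (NRF2), YY1 and Sp1 are known regulators of these nuclear genes.

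The promoters show what the nuclear members share in sequence, which the rule did not use. Windows from 250 bases before to 50 bases after the RefSeq start (GRCr8) were found for 78 of the 85 members, and 4 motifs were searched on both strands. The NRF1 letters GCGCANGCG occurred in 19 of the 78 windows (24.4%), against 13.0% of the windows of 9690 other protein-coding genes with a tested probe set and 7.62% of 21851 protein-coding windows. The ETS letters CCGGAAG occurred in 22 windows (28.2%), against 17.5% and 10.7%. The YY1 letters AAGATGGC occurred in 17 windows (21.8%), against 5.31% and 3.67%, and 15 of the 17 matches began within 50 bases of the start. The Sp1 letters GGGCGG occurred in 43.6% of the members' windows, below the 62.5% of the other tested genes and near the 41.8% of all protein-coding windows. Over all 33469 windows the shares were 5.80%, 8.75%, 3.17% and 33.1% in the same order of motifs. At least 1 of the NRF1, ETS and YY1 motifs was present in 46 of the 78 windows (59.0%), against 30.7% of the other tested genes and 19.4% of all protein-coding windows. No window held matches of different motifs that overlapped. The median GC content of the windows was 56.0% for members, 61.0% for the other tested genes and 55.0% for all protein-coding genes. These matches describe letters in a window, not bound sites.

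**Figure D1:**
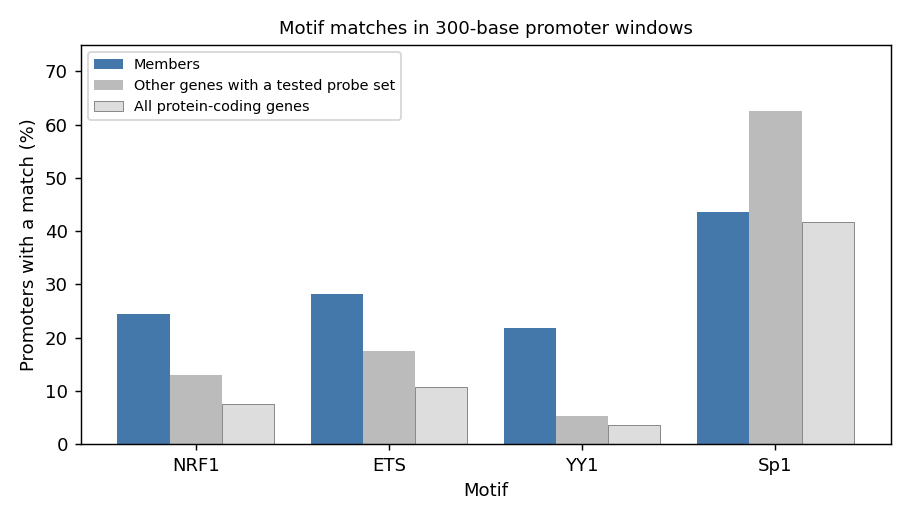
The bars give the percentage of 300-base promoter windows that hold each motif on either strand, for the 78 members found, for 9690 other protein-coding genes with a tested probe set, and for 21851 protein-coding windows. The member bar is the highest for NRF1 (24.4%), ETS (28.2%) and YY1 (21.8%), but not for Sp1 (43.6% against 62.5%).

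For each complex, a member with the most NRF1 and ETS matches in the 200 bases before the start, 2 in each case, is printed here, as bases -200 to -1 relative to the RefSeq start (GRCr8), 5′ to 3′ on the gene's strand, with NRF1 and ETS matches of either orientation in capitals. *Ndufa6* tied with *Ndufa13*, and *Uqcrc2* with *Uqcrc1*, and the first by alphabet was taken. *Sdha* had NRF1 matches starting at -89 and -46, and *Uqcrc1* at -63 and -39. *Ndufa13* had ETS matches starting at -126 and -9, and *Cox8a* at -57 and -19. *Atp5me* held both kinds, an NRF1 match starting at -76, where both strands match, and an ETS match at -11. Among complexes, the NRF1 letters were found in 8 of 34 windows of complex I, 2 of 6 of its assembly factors, 1 of 4 of complex II, 1 of 6 of complex III, 1 of 13 of complex IV and 6 of 15 of complex V.
Ndufa13, chr16:19560326-19560525, plus strand: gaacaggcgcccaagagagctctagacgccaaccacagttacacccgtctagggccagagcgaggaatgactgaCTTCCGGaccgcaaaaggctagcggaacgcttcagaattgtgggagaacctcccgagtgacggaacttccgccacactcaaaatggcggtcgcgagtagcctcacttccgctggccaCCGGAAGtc
Sdha, chr1:30764353-30764552, plus strand: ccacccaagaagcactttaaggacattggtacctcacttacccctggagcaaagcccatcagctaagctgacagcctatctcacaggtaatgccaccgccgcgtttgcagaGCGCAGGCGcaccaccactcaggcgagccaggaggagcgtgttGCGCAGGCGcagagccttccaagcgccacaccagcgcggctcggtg
Uqcrc1, chr8:118468023-118468222, plus strand: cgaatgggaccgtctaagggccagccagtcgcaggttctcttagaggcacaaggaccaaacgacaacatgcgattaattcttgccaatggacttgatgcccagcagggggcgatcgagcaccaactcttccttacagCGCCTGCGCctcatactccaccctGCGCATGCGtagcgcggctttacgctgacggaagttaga
Cox8a, chr1:213833624-213833823, minus strand: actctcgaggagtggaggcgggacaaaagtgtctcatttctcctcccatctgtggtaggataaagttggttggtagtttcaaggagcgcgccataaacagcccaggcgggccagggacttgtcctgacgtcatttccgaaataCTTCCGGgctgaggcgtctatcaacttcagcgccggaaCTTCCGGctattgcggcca
Atp5me, chr14:1464660-1464859, plus strand: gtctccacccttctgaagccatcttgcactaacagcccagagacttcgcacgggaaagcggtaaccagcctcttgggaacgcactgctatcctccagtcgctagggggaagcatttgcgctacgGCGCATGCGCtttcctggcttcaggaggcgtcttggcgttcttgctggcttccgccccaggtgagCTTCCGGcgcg

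On the arrays, the 4 lines differed by little in these genes. The analysis used log2(signal + 16), where the signal is the scaled intensity of a probe set, and tested the probe sets whose mean log2 value was at or above the 40th percentile, a signal of about 65.2. Of the 85 members, 80 passed this filter. The 5 that did not were *Cox6a2*, *Cox6b2*, *Cox7a1*, *Cox7b2* and *Cox8b*. The highest and lowest line means of a tested member lay 0.16 apart on the log2 scale at the median, a ratio of 1.12, and 71 of the 80 differed by a ratio under 1.25. The smallest range was 0.04, in *Ndufa12*, and the largest 0.46, in *Atp5mk*.

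With limma and Benjamini-Hochberg adjustment over all 18607 tested probe sets, at an adjusted p under 0.05, 0 of 80 members were called among the 4 lines, where 0.994% of all tested probe sets were. Likewise, 0 members were called in Ept1 (0.193% of all), in Ept2 (0.801%), in Ept6 (0.161%) and in Ept9 (0.683%). At these shares, fewer than 1 of 80 genes would be called in any of the 5 tests. At an unadjusted p under 0.05, 4 members (5.00%) passed the test among the 4 lines, against 14.1% of all tested probe sets. The counts were 3 members in Ept1 (7.49% of all), 7 in Ept2 (14.4%), 4 in Ept6 (10.7%) and 3 in Ept9 (11.0%). In each of these tests the members' share was below that of all probe sets.

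The spread of these genes was small. Over the 12 arrays the SD of a member was 0.11 on the log2 scale at the median, against 0.20 for all tested probe sets. This goes with brightness: at a mean signal of at least 4000 the median SD was 0.09 for 51 members and 0.09 for all 1123 probe sets. For 77 of the 80 members, the 95% limma intervals of all 4 line contrasts lay within a 1.5-fold change either way, and for 51 members they lay within 1.25-fold. The 3 exceptions at 1.5-fold were *Ndufa4l2*, *Ndufb8* and *Cox4i2*, and *Cox4i2* was the only member with an interval reaching past 2-fold. limma draws each gene's spread towards that of all probe sets, which are mostly dimmer and more variable than these genes. When that common spread was allowed to follow brightness (the eBayes trend option), 2 members were called among the 4 lines, *Atp5mk* (adjusted p = 0.0294, limma) and *Atp5pb* (adjusted p = 0.0316, limma), where 2.25% of all probe sets were called. *Atp5mk* was also called in Ept2 (adjusted p = 0.0376, limma), where 1.83% of all probe sets were. Those 2 of 80 members are a share near the background.

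The members with the lowest p among the 4 lines were *Atp5mk*, *Atp5pb*, *Ndufs4* and *Ndufa6*. The last is named here because of its values, as it was not on the list of genes fixed by the naming rule. *Atp5mk* encodes a small membrane subunit of the ATP synthase that takes part in dimer formation. Its signals were 11946, 13754 and 14287 in Ept1, 14771, 19482 and 16110 in Ept2, 11111, 12965 and 12436 in Ept6, and 14688, 15138 and 15299 in Ept9. All Ept2 and Ept9 arrays lay above all Ept1 and Ept6 arrays. The Ept2 contrast was 0.31 ± 0.09 (log2 change ± SE) and the Ept6 contrast -0.30 ± 0.09, with an adjusted p among the lines of 0.221 (limma). A two-sided exact permutation test over all partitions of the 12 arrays into 4 groups of 3 gave p = 0.00571, unadjusted for the number of genes.

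*Atp5pb* encodes subunit b of the peripheral stalk, which holds the catalytic head of the ATP synthase in place. Its signals were 10131, 9719 and 9635 in Ept1, 10624, 12480 and 12829 in Ept2, 8866, 9807 and 10741 in Ept6, and 12196, 11501 and 13437 in Ept9. The Ept9 arrays lay above every Ept1 and Ept6 array, and 1 Ept2 array fell within the Ept6 range. The contrast was 0.24 ± 0.09 in Ept9 and -0.21 ± 0.09 in Ept6, with an adjusted p of 0.226 among the lines (limma) and p = 0.0194 in the exact permutation test.

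*Ndufs4* encodes an accessory subunit next to the NADH-oxidizing module of complex I. Its signals were 647, 738 and 747 in Ept1, 772, 894 and 735 in Ept2, 575, 603 and 633 in Ept6, and 694, 676 and 732 in Ept9. The 3 Ept6 arrays were the lowest of the 12. The Ept6 contrast was -0.28 ± 0.08 and the Ept2 contrast 0.25 ± 0.08, with an adjusted p of 0.235 among the lines (limma) and p = 0.00429 in the exact permutation test. *Ndufa6*, another accessory subunit of complex I, had 5388, 5586 and 5192 in Ept1, 5893, 6601 and 7051 in Ept2, 4622, 5373 and 5483 in Ept6, and 6105, 6217 and 5740 in Ept9. Here too the Ept2 and Ept9 arrays lay above all arrays of the other lines (adjusted p = 0.267, limma, and exact permutation p = 0.00792).

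**Figure D2:**
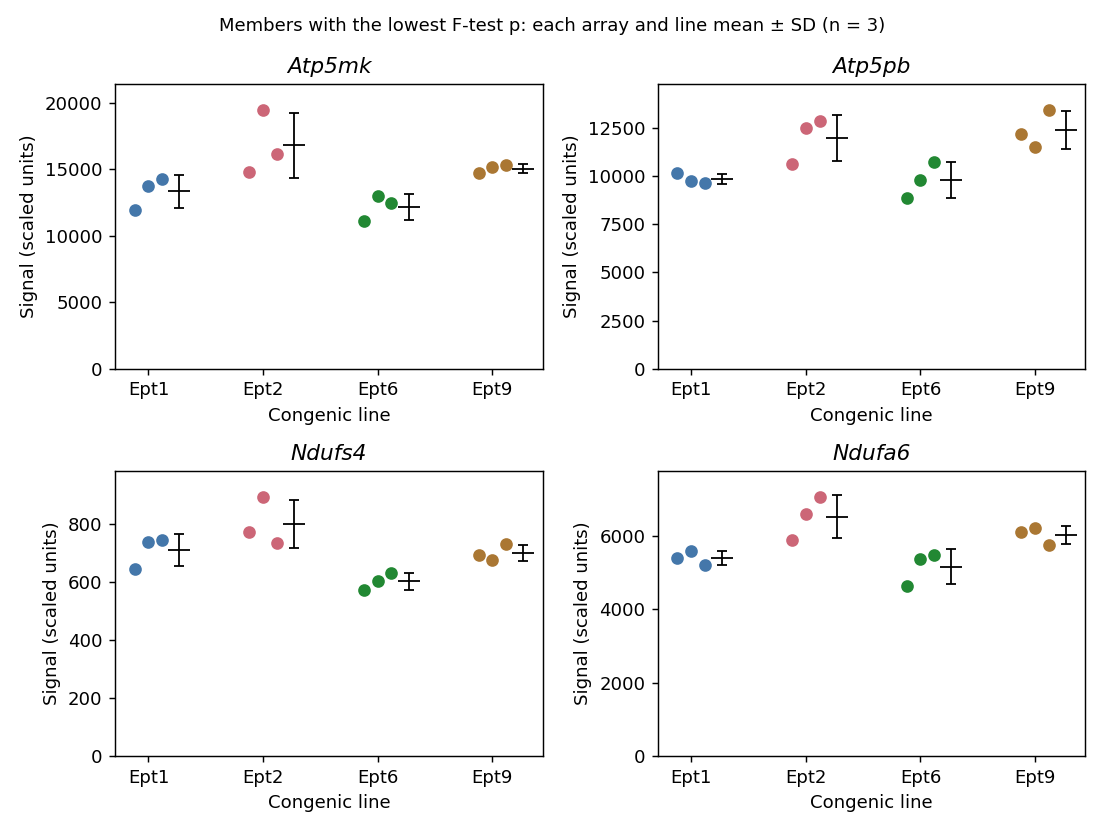
Each panel shows the scaled signal of 1 gene (vertical axis, from 0) in the 4 lines, with a point per array and the line mean ± SD (n = 3) beside it. In *Atp5mk* and *Ndufa6* the Ept2 and Ept9 points lie above those of Ept1 and Ept6, and in *Ndufs4* the Ept6 points (575 to 633) are the lowest.

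Arrays of 1 line that all lay above or all below the other 9 were few. This held for 1 member in Ept1 (1.14% of all tested probe sets), 2 in Ept2 (3.60%), 2 in Ept6 (1.93%) and 1 in Ept9 (2.69%). They are named for these values. *Ndufaf7*, a methyltransferase for complex I assembly, was higher in Ept1 (388 to 448) than elsewhere (276 to 386). A dimmer tested probe set of *Ndufaf7* went the other way, with an Ept1 contrast of -0.26 against 0.27. *Ndufc1*, a small complex I subunit, was higher in Ept2 (3269 to 3530), as was *Uqcrh*, the hinge protein of complex III (12528 to 12782). *Cox7c*, a small complex IV subunit, was lower in Ept6 (8817 to 9056), as was *Ndufs4*. *Uqcr10*, a small complex III subunit, was higher in Ept9 (8575 to 9053). With 1 to 2 of 80 members per line, these counts were near or below the shares of all probe sets.

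In complex I, the catalytic core was flat. *Ndufv1*, which binds FMN and oxidizes NADH, had line contrasts between -0.13 ± 0.07 (Ept6) and 0.09 ± 0.07 (Ept9), and its partner *Ndufv2* between -0.13 ± 0.10 (Ept1) and 0.18 ± 0.10 (Ept2). The iron-sulfur subunits *Ndufs1*, *Ndufs3*, *Ndufs7* and *Ndufs8* had ranges of line means of 0.15, 0.22, 0.09 and 0.08. The largest range after *Ndufs4* was in *Ndufa3*, a small membrane-arm subunit, with line means of 4715 ± 556 in Ept1, 5434 ± 189 in Ept2, 5304 ± 706 in Ept6 and 6039 ± 655 in Ept9 (SD, n = 3). The Ept9 and Ept6 arrays of *Ndufa3* overlapped, and its adjusted p among the lines was 0.447 (limma). *Ndufa12*, another accessory subunit, gave 6066 to 7257 over all 12 arrays with the 4 lines fully overlapping. Among the assembly factors, *Ndufaf8* had the largest range, 0.32, with 331 to 458 in Ept1, 387 to 456 in Ept2, 264 to 380 in Ept6 and 344 to 402 in Ept9, and *Ndufaf1* the smallest, 0.13. *Ndufa4*, grouped here by its name but now counted as a complex IV subunit, had its largest contrast in Ept2, at 0.22 ± 0.09 with an adjusted p among the lines of 0.528 (limma).

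Complex II, succinate dehydrogenase, also belongs to the tricarboxylic acid cycle and has no subunit encoded in mitochondrial DNA. Its 4 genes moved little. The flavoprotein *Sdha* ran from 2081 to 2462 and had a range of line means of 0.09. The iron-sulfur subunit *Sdhb* had line means of 4637 ± 203, 4422 ± 377, 4694 ± 235 and 4966 ± 102 in Ept1, Ept2, Ept6 and Ept9. The membrane anchor *Sdhc* had its largest contrast in Ept9, at 0.14 ± 0.07, and the other anchor, *Sdhd*, had -0.11 ± 0.07 in Ept6 and 0.11 ± 0.07 in Ept9. All 4 genes had a positive contrast in Ept9, and none passed the test.

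In complex III, the core proteins *Uqcrc1* and *Uqcrc2* had ranges of 0.20 and 0.12, and the Rieske iron-sulfur protein *Uqcrfs1* 0.16. *Uqcrc1*, with the largest range of the complex, had line means of 4533 ± 95.9 in Ept1, 4774 ± 538 in Ept2, 4401 ± 519 in Ept6 and 5034 ± 253 in Ept9, with overlap among the lines. *Uqcr11* had the smallest range, 0.09. All 7 genes had a negative contrast in Ept6, between -0.12 and -0.05.

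In complex IV, the general isoforms *Cox4i1*, *Cox5b*, *Cox6a1* and *Cox8a* had ranges of 0.25, 0.08, 0.13 and 0.14. *Cox4i1*, the largest nuclear-encoded subunit, had 13626 to 15055 in Ept1, 13703, 17418 and 17576 in the 3 Ept2 arrays, 13205 to 13905 in Ept6 and 11678 to 15013 in Ept9. Only 2 of the 3 Ept2 arrays stood above the rest, and the Ept2 contrast was 0.22 ± 0.10 (adjusted p among the lines 0.562, limma). *Cox5a* was read from a dim probe set (165 to 280), because its brighter one carries several symbols and was left out by the rule, and the same holds for *Cox7a2*, which is no member here.

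The tissue-restricted isoforms were dim. *Cox6a2*, *Cox7a1* and *Cox8b*, the forms of heart and skeletal muscle, ran from 2.4 to 42.5, from 8.5 to 115 and from 2.9 to 43.1. *Cox6b2* and *Cox7b2*, known from testis, ran from 5.4 to 59.2 and from 3.7 to 38.5. Their means over 12 arrays were all under the filter signal of 65.2, and a signal this low gives only a bound. The markers of skeletal muscle were in part dim as well: 6 of the 8 measured were under the filter, among them *Ckm* (42.8 to 106) and *Mb* (2.3 to 42.4), while *Myh1* (3013 to 4325) and *Acta1* (522 to 693) passed it. *Cox4i2*, the isoform typical of lung and low oxygen, passed the filter at 47.5 to 146. Its range of line means, 0.44, was the second largest of the tested members. But its 3 arrays spread from 60 to 142 in Ept2 alone, and the adjusted p among the lines was 0.814 (limma).

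**Figure D3:**
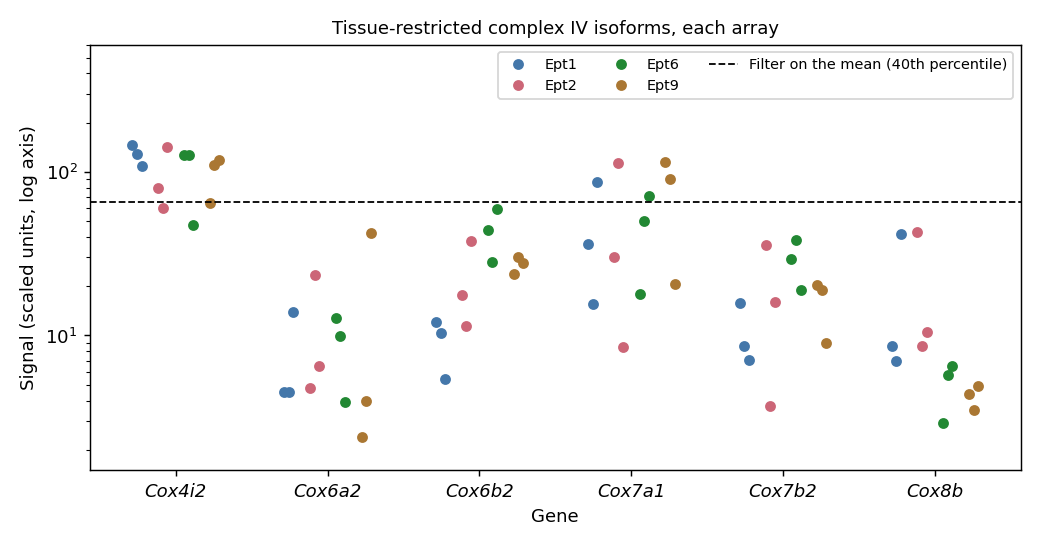
Points give the signal on each array (log axis) for 6 complex IV isoforms, coloured by line, and the dashed line marks the filter signal of 65.2, which applied to the mean of log2 values. Only *Cox4i2* lies mostly above the line, and the lines overlap in it.

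In complex V, the ranges of the catalytic head and central stalk differed by subunit. *Atp5f1a*, *Atp5f1b* and *Atp5f1c*, the alpha, beta and gamma subunits, had ranges of 0.09, 0.12 and 0.15, and the inhibitor *Atp5if1*, which blocks ATP hydrolysis, 0.11. The central-stalk subunits delta and epsilon, *Atp5f1d* and *Atp5f1e*, had 0.14 and 0.26. *Atp5mc3*, a gene of the proton-carrying c ring, had 0.08. The 2 largest ranges, in *Atp5mk* and *Atp5pb*, were in the membrane part and the peripheral stalk. Of the 16 genes, 15 had a negative contrast in Ept1, 14 a positive one in Ept2, all 16 a negative one in Ept6 and 15 a positive one in Ept9.

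Small differences in the same direction ran through most of the members, although no gene passed the test. The line contrast was positive in 22 of 80 members in Ept1, 63 in Ept2, 6 in Ept6 and 68 in Ept9. The median contrasts were -0.04, 0.05, -0.09 and 0.06 on the log2 scale, against 0.01, 0.01, 0.01 and -0.01 over all tested probe sets. The 6 complex I assembly factors were mixed, with 4, 3, 2 and 3 positive in Ept1, Ept2, Ept6 and Ept9. Of the 11 tested complex IV genes, 5, 9, 0 and 8 were positive. Ept6 was the lowest line for 50 members (62.5%), against 25.1% of all tested probe sets and 40% of those with a mean signal of at least 2000. Ept2 was the highest for 36 (45%) and Ept9 for 31 (38.8%), against 29.3% and 33.2% of those bright probe sets. Bright probe sets as a whole leaned the same way: of the 2510 with a mean signal of at least 2000, 48.0% were positive in Ept1, 53.7% in Ept2, 38.8% in Ept6 and 63.2% in Ept9, while of the 68 members in that range 17.6%, 83.8%, 5.88% and 88.2% were. The lean of all probe sets grew with brightness: of the 1123 with a mean signal of at least 4000, 492, 674, 324 and 758 were positive in Ept1, Ept2, Ept6 and Ept9, against 8, 45, 2 and 45 of the 51 members there. Since genes measured on the same arrays are not independent, these counts carry no test.

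**Figure D4:**
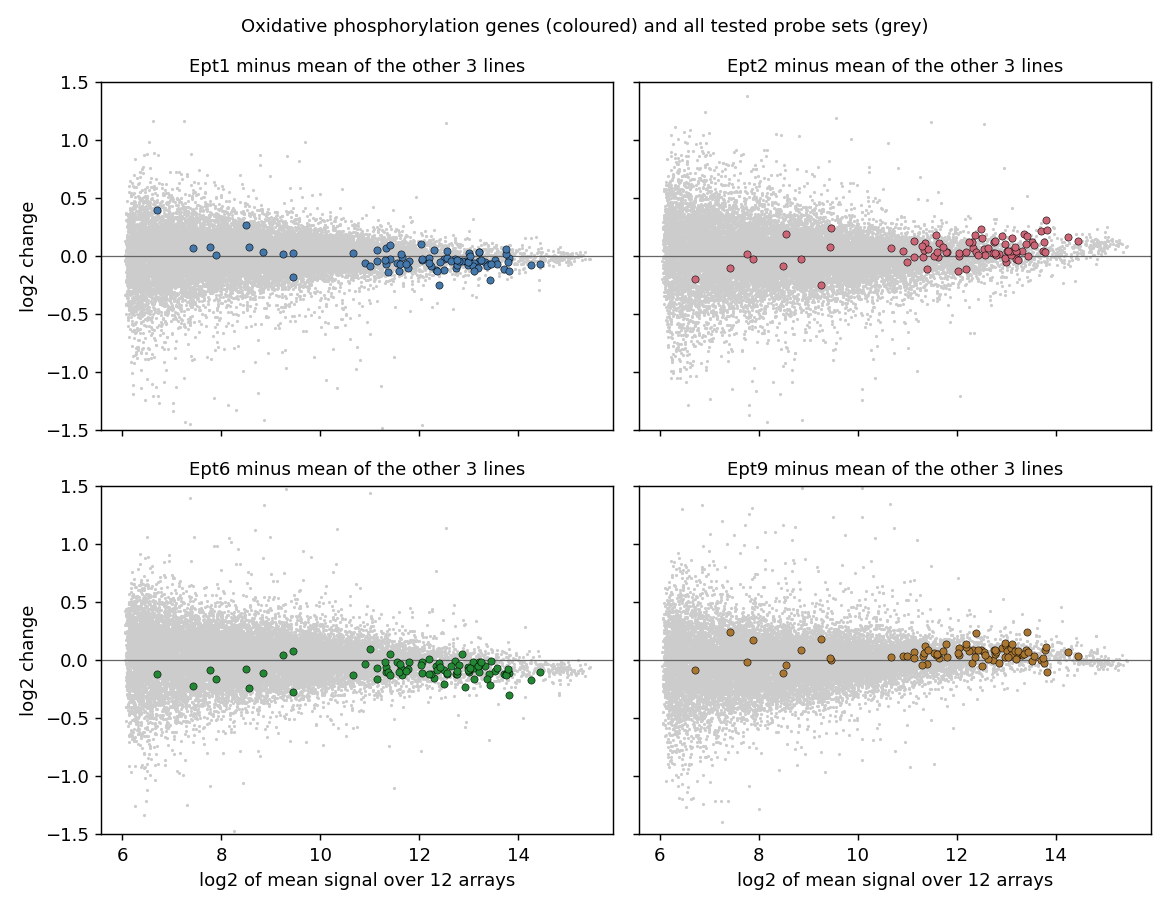
Each panel plots the log2 change of 1 line against the mean of the other 3 (vertical axis) over log2 of the mean signal (horizontal axis), with all 18607 tested probe sets in grey and the 80 tested members coloured. Probe sets beyond ±1.5 in a panel, 29 in all, are outside the axes. Most members sit at high signal, a little below 0 in Ept6 (74 of 80) and a little above it in Ept9 (68 of 80).

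By array, the lean was uneven within lines. Of the 80 members, 19, 26 and 51 were above their own 12-array mean in the Ept1 arrays, 36, 63 and 56 in Ept2, 7, 37 and 23 in Ept6, and 57, 57 and 62 in Ept9. Only the 3 Ept9 arrays were alike. The first Ept6 array stood apart, with a median deviation of -0.13 and the lowest signal of all arrays for 35 of the 80 members. Without it, the Ept6 median was -0.05 in place of -0.09 and 20 members were positive in place of 6. The second Ept2 array had the highest signal for 27 members. Without the first Ept2 array the Ept2 median was 0.09, and without the second it was 0.04. After quantile normalization between arrays the 4 medians were -0.03, 0.04, -0.05 and 0.03, with 25, 59, 15 and 58 members positive.

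**Figure D5:**
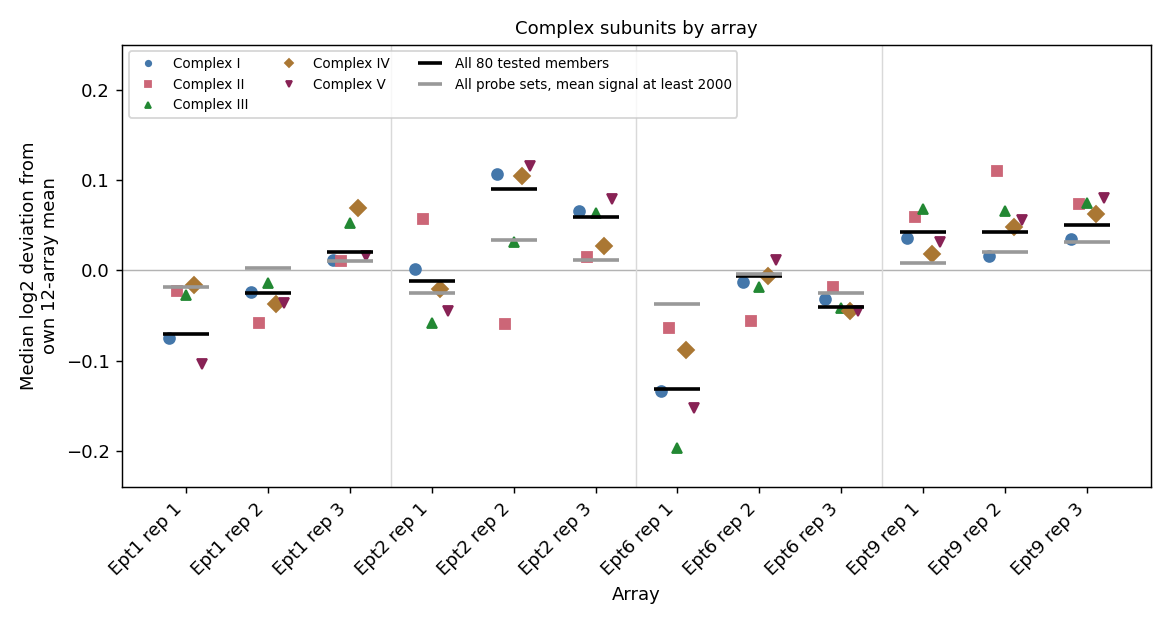
For each array, symbols give the median log2 deviation of the subunits of complexes I to V from their own 12-array means, the black bar that of all 80 tested members, and the grey bar that of all probe sets with a mean signal of at least 2000. The first Ept6 array is the lowest (-0.13 over the members) and the 3 Ept9 arrays are all above 0 (0.04 to 0.05).

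Other measures differed among the same arrays. The log2 ratio of the 3′ to the 5′ control probe set of *Gapdh*, a sign of RNA integrity, was 0.25 to 0.26 in Ept1, 0.31 to 0.42 in Ept2, 0.09 to 0.20 in Ept6 and 0.17 to 0.28 in Ept9. The same ratio for beta-actin was 1.59 to 1.79 in Ept1 and 1.76 to 1.85 in Ept2. In Ept6 it was 1.49 to 1.72 and in Ept9 1.58 to 1.62. The beta-actin ratio was lowest in the first Ept6 array and highest in the second Ept2 array. The *Gapdh* ratio had other extremes: it was lowest in the third Ept6 array (0.09) and highest in the third Ept2 array (0.42). In the second Ept2 array the *Gapdh* ratio was the lowest of that line (0.31). The summed signal of 4 somatotroph markers was 32613 to 37882 in Ept1, 38198 to 46066 in Ept2, 29699 to 34822 in Ept6 and 34426 to 37117 in Ept9, most of it *Gh1*, and of the 4 genes 2 had a positive contrast in Ept2 and 2 in Ept6. The sum of 7 lactotroph markers was 98640 to 102760, 100840 to 113710, 97057 to 99442 and 98790 to 103660. Some other lists differed more between Ept2 and Ept6. The 5 gonadotroph markers summed to 31450 to 37647, 35042 to 41682, 29582 to 31388 and 32134 to 35174 in Ept1, Ept2, Ept6 and Ept9. Most of this sum was *Cga* (28680 to 39233 over the arrays). Of the 5 genes, 5 were positive in Ept2 (median contrast 0.44) and 0 in Ept6 (-0.21). The 5 tested folliculostellate and stem cell markers were all positive in Ept2 (median 0.35) and all negative in Ept6 (-0.34), with sums over the 6 measured, of which *Gfap* was dim, of 1924 to 2141, 2233 to 2680, 1750 to 2050 and 1839 to 2192. The 2 tested thyrotroph markers had medians of 0.51 in Ept2 and -0.36 in Ept6, and the 5 endothelial markers were all positive in Ept2 (median 0.19), with 1 positive in Ept6 (-0.12). In Ept9, where most members were positive, the medians of these 4 lists were -0.21, -0.12, -0.29 and -0.04. The 2 tested corticotroph markers were both positive in Ept2 (median 0.36). In Ept6 they went opposite ways, at 0.19 and -0.48, which gave a median of -0.15. *Pomc*, also on that list, was under the filter. Leukocyte and stroma markers did not share the lean of the 4 lists. The 6 tested leukocyte markers had medians of -0.25 in Ept2 (1 positive) and -0.04 in Ept6 (2 positive). The 6 tested stroma markers had -0.11 in Ept2 (2 positive) and 0.02 in Ept6 (3 positive). *Hbb*, the hemoglobin chain of red cells, ran from 12898 to 28746, and the 3 blood markers summed to 13281 to 14482 in Ept6 and 18423 to 29806 in Ept9. The part of RNA integrity and of cell makeup in the lean of the members was not tested. In whole tissue, fewer cells of a type and less RNA per cell cannot be told apart.

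No member on the chromosome of a line's own COP segment passed the test in that line. There were 4 on chromosome 6, 7 on chromosome 3 and 4 on chromosome 10, and how many lie inside the segments is not known here. Of all tested probe sets, 0.193% were called in Ept1, 0.801% in Ept2, 0.161% in Ept6 and 0.683% in Ept9. At these shares, sets this small would seldom hold a called gene. The lowest unadjusted p among these members was 0.0298 (limma, adjusted p = 0.588), for *Ndufaf7* in Ept1, at 0.27 ± 0.11. The dimmer probe set of *Ndufaf7* gave -0.26 in Ept1. On chromosome 3 the contrasts ran from -0.19 to 0.17 in Ept2 and from -0.17 to -0.07 in Ept6, and on chromosome 10 from -0.04 to 0.08 in Ept9.

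Among genes around the complexes, only a pair of assembly factors was called. No gene was called in any of the 5 tests among 21 electron carriers and nucleotide exchangers, 15 genes of pyruvate dehydrogenase and the tricarboxylic acid cycle, 17 of glycolysis, 21 regulators of mitochondrial biogenesis, 73 mitochondrial ribosomal proteins, 16 subunits of the V-ATPase and the 2 mitochondrially encoded subunits tested, *Mt-co1* and *Mt-co2*. Their medians were within 0.11 of 0 in every line. At the shares of all tested probe sets, 0.161% to 0.994% over the 5 tests, fewer than 1 gene would be called in each list. The absence of calls is therefore not particular to these genes. The V-ATPase subunits form another proton pump and lie outside mitochondria. They were positive in 8, 10, 1 and 15 of 16 in Ept1, Ept2, Ept6 and Ept9. Of all tested probe sets, 53.2%, 51.8%, 52.3% and 46.2% were positive in these lines. At a mean signal of at least 2000 the shares were 48.0%, 53.7%, 38.8% and 63.2%. Electron carriers and nucleotide exchangers were positive in 7, 15, 4 and 20 of 21, in the same order of lines. Genes of pyruvate dehydrogenase and the tricarboxylic acid cycle were positive in 9, 6, 3 and 11 of 15. For the regulators of mitochondrial biogenesis the counts were 12, 13, 7 and 14 of 21. Mitochondrial ribosomal proteins were positive in 23, 55, 22 and 49 of 73 in Ept1, Ept2, Ept6 and Ept9, and glycolysis genes in 10, 5, 6 and 13 of 17.

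Of 37 tested assembly factors outside the rule, 2 were called among the 4 lines, where 0.994% of all tested probe sets were. In the line contrasts, 1 was called in Ept2 (0.801% of all) and 1 in Ept9 (0.683%). *Sco1*, a copper chaperone for complex IV that maps to chromosome 10, had 458, 515 and 555 in Ept1, 490, 554 and 605 in Ept2, 470, 519 and 495 in Ept6, and 315, 314 and 274 in Ept9. The 3 Ept9 arrays were the lowest, and the gene fell by 0.75 ± 0.09 on the log2 scale in Ept9 (adjusted p = 0.00457, limma). *Nubpl*, which delivers iron-sulfur clusters to complex I and maps to chromosome 6, had 126, 119 and 128 in Ept1, 179, 167 and 260 in Ept2, 58.8, 95.8 and 65.7 in Ept6, and 92.8, 109 and 67.5 in Ept9. The 3 Ept2 arrays were the highest, and the gene rose by 0.98 ± 0.16 in Ept2 (adjusted p = 0.0288, limma). No member of the complexes these factors serve passed the test in the same lines. Over the 11 tested complex IV members the median contrast in Ept9 was 0.04, and over the 36 complex I members the median in Ept2 was 0.06.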

How the data were processed

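Total RNA of whole anterior pituitary was hybridised to 12 Affymetrix Rat Genome 230 2.0 arrays, 3 for each of 4 lines. The deposited values were linear intensity values for 31099 probe sets, scaled by the authors to a 2% trimmed mean of about 500 on each array (500.18 to 500.19). The software that made these signals, and its background correction, were not given in the sources used here. Scaling to 1 total makes each value relative to the rest of its array.

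From these intensity values, log2(signal + 16) was computed. Control probe sets (57) and 12435 dim ones were left out, and 18607 were tested with limma 3.58.1 in R 4.3.3 (lmFit, eBayes, no covariate), by an F test among the lines and 4 contrasts of a line against the mean of the other 3, with Benjamini-Hochberg adjustment over all tested probe sets at 0.05. Single members also had a two-sided exact permutation test of the between-line sum of squares over every split of the arrays into 4 groups of 3 (Python 3.11.15). limma and the permutation were tested on simulated data. Arrays carry no read depth: their number limits the precision.

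Of 95 member probe sets the brightest was kept for each of 85 genes. 9 genes had several, and 7 probe sets with several symbols were left out. All 85 symbols matched RefSeq (GRCr8), which also gave the promoter windows. Members, gene lists and motifs were chosen with earlier results of these data known. The naming rule took members called in any test, the 2 largest and the smallest range of line means in each complex, and a core set of catalytic and isoform genes; others were named after their values were seen. Alternatives changed the pseudocount, normalization, filter, moderation, array weights, replicate block, probe set rule and arrays included.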

Additional observations from a re-analysis of the deposited data

How the results depend on the processing

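The count of members called was recomputed under 22 alternatives. It stayed at 0 among the 4 lines and in each line when all probe sets of a gene were averaged, with array quality weights, with no filter or one at the 60th percentile, with a pseudocount of 1 or 64, after median centring or quantile normalization, and on leaving out each array in turn (0 to 0). With the eBayes trend it was 2 among the 4 lines and 1 in Ept2, and 0 in Ept1, Ept6 and Ept9. With the replicate number as a block (replicate block) it was 0 in every test, while the calls over all probe sets fell to 84 among the lines. The numbers did not pair the arrays: same-number correlations of deviations ran from -0.14 to 0.08, with a median of 0.02 over 18 pairs. Over all probe sets, the calls among the lines ran from 53 to 419 against 185. The median contrast of the members kept its sign in every line: -0.06 to -0.03 in Ept1, 0.03 to 0.09 in Ept2, -0.10 to -0.05 in Ept6 and 0.03 to 0.09 in Ept9, each within the replicate SD of the array medians (0.05) of its main value. Of 746 adjusted p-values of single named members under the alternatives, 2 crossed the threshold, both with the eBayes trend.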

Other observations

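A second probe set gave little agreement in direction for members that have one. Of 10 further probe sets of 9 genes, each dimmer than the one kept, 7 passed the filter, for 6 genes. These 7 had mean signals from 78.6 (*Atp5if1*, against 5509 for its brightest) to 1695 (*Sdhd*, against 4246). Their line contrasts had the same sign as that of the brightest probe set in 12 of 28 pairs of values, and none of them passed the test (limma). For *Ndufaf7* in Ept1 the brightest probe set gave 0.27 and the other -0.26, on the log2 scale. For *Uqcrc2* in Ept1 they gave 0.05 and 0.33. For *Sdhd* they gave 0.11 and 0.11 in Ept9, but 0.03 and -0.09 in Ept2 and -0.11 and 0.01 in Ept6.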
